A study of Mus musculus with 2 samples.

Results

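The genes described here are the cyclins and cyclin-dependent kinases (Cdks) of the mouse, read through a promoter histone mark in an erythroleukaemia cell line. They were taken by symbol from the protein-coding genes of the GENCODE M21 annotation: Ccn followed by 1 letter and an optional number, or Cdk followed by a number. The rule found 43 genes, 25 cyclins and 18 kinases, of 21938 protein-coding genes on chromosomes 1 to 19, X and Y. Trimethylation of histone H3 at lysine 4 (H3K4me3) had been mapped by chromatin immunoprecipitation and sequencing (ChIP-seq) in MEL cells, an immortalized mouse erythroleukaemia line that the labels describe as a counterpart of the human line K562. The data were lists of peaks for 2 libraries of 1 group, with no treatment, no genotype contrast and no second condition. The labels call them biological replicates 1 and 2 but cite a single cell sample, so the spread between them may be technical. The lists give peaks and no reads, so depth is unknown, and a gene without a peak may have lacked reads.

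Cyclins are the regulatory subunits that switch on Cdks. D cyclins with Cdk4 or Cdk6 carry cells through the first gap phase by phosphorylating the retinoblastoma protein, E and A cyclins with Cdk2 drive DNA replication, and A and B cyclins with Cdk1 drive mitosis. A separate set, including Cdk7, Cdk8, Cdk9 and Cdk12 with cyclins H, C, T and K, acts on RNA polymerase II and transcription. In red cell precursors cyclin D3 with Cdk6 is known for setting the number of divisions before maturation, and forced Cdk6 activity is known to hold back the differentiation of MEL cells. H3K4me3 itself marks the starts of active and poised genes and does not measure transcription.

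A gene was counted as marked when one of its transcription start sites (TSSs) had a peak no further than 1000 bp away. The main calls used the list of peaks that the authors give as replicated, and each replicate's own list was read beside it. A TSS domain is a set of such peaks and their neighbours, joined where gaps were 1000 bp or less, and each gene was given its widest. Of 8 erythroid marker genes all were marked, and of 10 markers of other cell types none was, in each of the 4 lists used.

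The promoters that follow are shown because the D cyclin kinases and the mitotic genes carried the comparisons on motifs and on peak position, and because Ccna1 is a CpG-rich promoter without a peak. They are RefSeq promoters of GRCm38.p6, 5′ to 3′, from the 250 bases before the RefSeq start, cut to the longest stretch outside annotated exons. Capitals mark the CCAAT box (CCAAT), the cell cycle homology region CHR (TTTGAA or TTCGAA), E2F (TTTCCCGC, TTTCGCGC, TTTGCCGC or TTTGGCGC), the E-box (CACGTG) and the TATA box (TATAAA), on either strand.
Cdk4, chr10:127063285-127063533, plus strand: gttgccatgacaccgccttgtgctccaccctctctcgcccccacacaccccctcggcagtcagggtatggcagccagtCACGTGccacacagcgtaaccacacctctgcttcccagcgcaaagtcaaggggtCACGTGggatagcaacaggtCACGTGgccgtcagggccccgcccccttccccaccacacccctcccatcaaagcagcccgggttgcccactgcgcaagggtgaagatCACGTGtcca
Cdk6, chr5:3343789-3343892, plus strand: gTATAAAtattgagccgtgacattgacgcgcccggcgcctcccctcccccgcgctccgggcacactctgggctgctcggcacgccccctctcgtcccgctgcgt
Ccnd3, chr17:47593217-47593435, plus strand: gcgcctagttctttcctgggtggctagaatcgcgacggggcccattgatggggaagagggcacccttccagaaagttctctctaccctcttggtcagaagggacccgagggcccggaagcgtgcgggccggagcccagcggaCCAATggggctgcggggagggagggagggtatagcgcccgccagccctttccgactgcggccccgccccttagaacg
Ccnb1, chr13:100786571-100786736, minus strand: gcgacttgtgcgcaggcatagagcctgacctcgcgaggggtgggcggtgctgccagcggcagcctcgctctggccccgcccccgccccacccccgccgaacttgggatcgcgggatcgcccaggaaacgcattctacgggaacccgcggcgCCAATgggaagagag
Ccnb2, chr9:70421555-70421804, minus strand: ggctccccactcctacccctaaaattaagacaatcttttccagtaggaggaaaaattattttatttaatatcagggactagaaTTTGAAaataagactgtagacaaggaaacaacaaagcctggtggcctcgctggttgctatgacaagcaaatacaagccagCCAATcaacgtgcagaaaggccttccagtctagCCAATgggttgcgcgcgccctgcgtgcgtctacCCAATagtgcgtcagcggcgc
Cdk1, chr10:69352939-69353162, minus strand: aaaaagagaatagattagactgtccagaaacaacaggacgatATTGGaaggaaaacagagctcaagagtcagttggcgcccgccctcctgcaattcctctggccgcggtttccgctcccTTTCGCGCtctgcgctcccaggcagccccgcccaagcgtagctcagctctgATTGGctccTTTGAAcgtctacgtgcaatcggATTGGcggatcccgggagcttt
Ccna1, chr3:55055056-55055251, minus strand: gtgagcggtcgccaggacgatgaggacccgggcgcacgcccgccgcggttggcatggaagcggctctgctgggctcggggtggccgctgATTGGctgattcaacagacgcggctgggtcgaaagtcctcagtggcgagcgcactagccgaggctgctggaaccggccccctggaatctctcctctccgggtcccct

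The Cdk4 stretch holds 4 E-boxes, and none of its 249 bases lay in a TSS peak. The Ccnb2 stretch holds 3 CCAAT boxes and 1 CHR, and the Cdk1 stretch 3 CCAAT boxes, 1 CHR and 1 E2F match. The Ccnb1 stretch holds 1 CCAAT box. The printed stretches leave out further matches in the 300 bases searched round the RefSeq start. These are a CHR at position 5 for Ccnb2 and at −15 for Cdk1, a CCAAT box at −67 for Ccnb1 and an E-box at −220 for Cdk6. A match is a run of letters and does not show that a factor binds. Of the 43 genes, 34 had a promoter in the RefSeq table. Ccna2, Ccnd1, Ccnd2, Ccne2, Ccnh, Ccny, Cdk17, Cdk19 and Cdk5 were not matched.

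Nearly all of the cyclin and Cdk genes were marked. A TSS peak was found at 39 of 43 genes (90.7%) in the replicated list, against 50.3% of all protein-coding genes. The same number, 39, had one in the replicate 1 list (50.4% of all genes), in the replicate 2 list (50.9%) and in the list from both libraries pooled (50.6%). The marked genes were 22 of 25 cyclins and 17 of 18 kinases. The exceptions were Ccnd1, Ccna1, Ccnb3 and Cdk15, which lacked a TSS peak in every one of the 4 lists. Each of the first 3 has a close relative that was marked: Ccnd2 and Ccnd3, Ccna2, and Ccnb1 and Ccnb2.

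Over all protein-coding genes the marked share moved with promoter composition, which the choice of genes did not use. Among the 43 genes the classes with fewer CpGs hold too few genes to show such a trend. In the 1001 bases round the 5′-most start, 33 of the 43 genes had a high-CpG promoter (a CpG ratio, observed over expected, no lower than 0.6, and GC no lower than 50%), against 44.4% of all genes. Of those 33 promoters 31 were marked, against 79.8% of all high-CpG promoters. The exceptions were Ccnd1, with a ratio of 0.64 and 60.8% GC, and Ccna1, with 0.77 and 68.2%. Among intermediate promoters 5 of 6 were marked, against 53.0% of all genes of that class, and Ccnb3 was the one without a peak. Among low-CpG promoters 3 of 4 were marked, against 16.6% of all genes of that class, namely Ccnt1, Cdk19 and Cdk14. The peaks of Ccnt1 and Cdk19 lay at starts further into the gene, and only Cdk14 had one at its 5′-most start. How far composition accounts for the share of marked genes was not tested.

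The D cyclin genes differed from each other. These are the cyclins that couple growth signals to the cell cycle, and 2 of 3 were marked. Ccnd2 had the widest TSS domain of all 43 genes, 7259 bp in the replicated list (chr6:127148090-127155348, mm10, minus strand), 6814 bp in replicate 1 and 7737 bp in replicate 2, or 7275.5 ± 652.7 bp (SD, n = 2). By width it lay at percentile 99.2 of all marked genes. Its 5 peaks reached from 4387 bp upstream of the start to 2871 bp downstream and took in the start of the non-coding gene 9330179D12Rik. The peak at its downstream edge was weak, with a −log10 q of 0.59. Without merging, its widest TSS peak was 2502 bp.

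Ccnd3, the D cyclin best known from erythroid division control in the mouse, had 2 separate TSS domains. The wider, 3304 bp at chr17:47592967-47596270 on the plus strand, measured 3551 bp in replicate 1 and 3323 bp in replicate 2 (3437.0 ± 161.2 bp, SD, n = 2). The other, of 1750 bp, lay at the 5′-most start, 88612 to 90361 bp further upstream, and its highest peak signal was 8.78 against 19.7 in the wider domain. All 19 annotated starts of Ccnd3 had a TSS peak, and 9 further peaks lay inside the gene, the largest number among the 43 genes. The Ccnd2 domain was 2.12 times as wide as that of Ccnd3 by the means of the replicates, and the replicate widths of the pair did not overlap. With gaps of up to 2000 bp joined, Ccnd3 came to 10516 bp, and at the 5′-most start alone to 1750 bp, so the order of the pair depends on how its domain is drawn.

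Ccnd1 had no peak within 1000 bp of its 3 starts and no peak inside the gene (chr7:144929931-144939925, minus strand). The nearest replicated peak, at chr7:144914460-144916104, lay 22093 bp downstream of the nearest start with a signal of 16.7, and was within 1000 bp of a start of LTO1, the neighbouring protein-coding gene. The replicates gave the same picture, with nearest peaks 22027 bp away in replicate 1 and 22280 bp away in replicate 2. None of the 32-base words of the Ccnd1 promoter occurs elsewhere in the genome, so its bases can be read uniquely at that length. Within 100 kb of the gene the replicated list held 5 peaks.

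**Figure D1:**
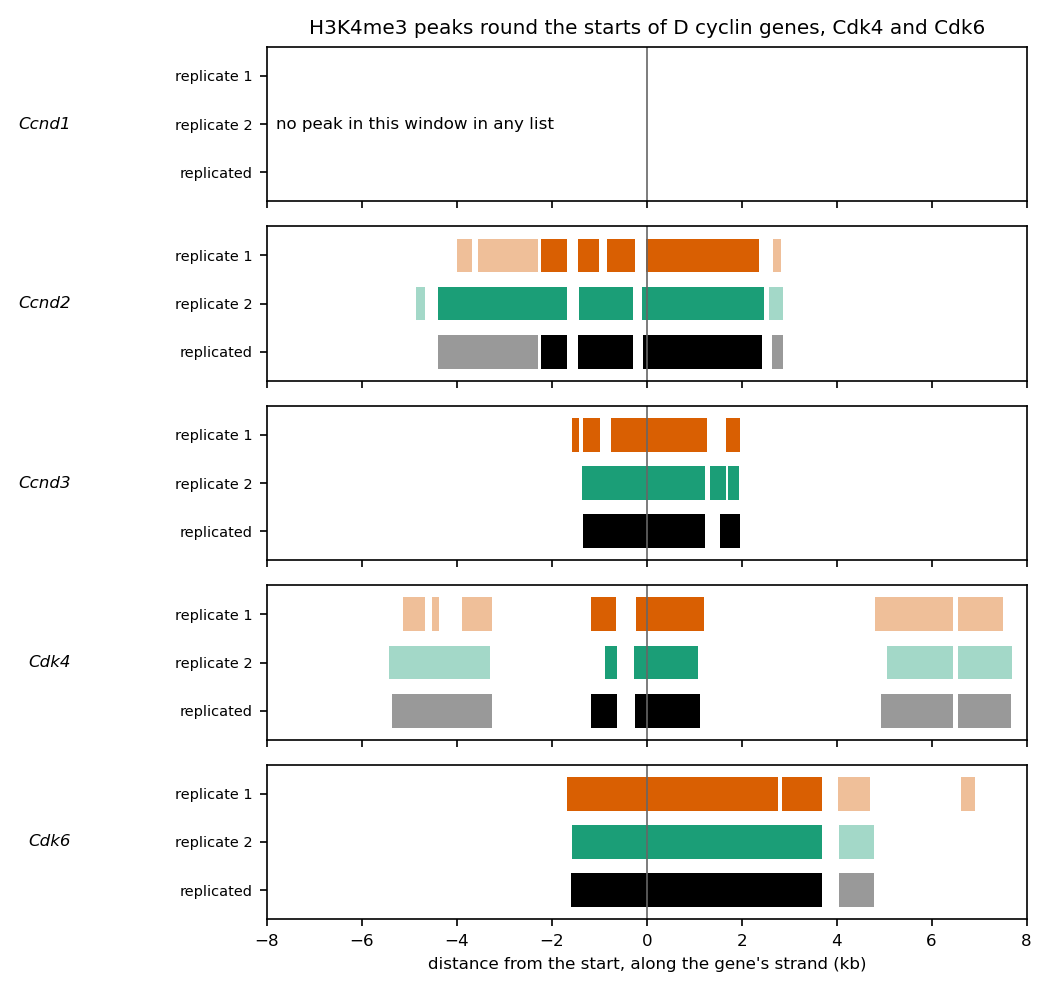
H3K4me3 peaks (bars) from 8 kb upstream to 8 kb downstream of the start of each gene, in the replicate 1, replicate 2 and replicated lists; full colour marks peaks within 1000 bp of a start of the gene and pale colour other peaks. Ccnd1 has no bar, Ccnd2 and Cdk6 carry the widest blocks, and Cdk4 carries 2 short peaks, one of them over the start.

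Both D cyclin kinases were marked, with unlike domains. Cdk6 had 6385 bp in the replicated list (chr5:3339889-3346273, plus strand), with 6370 bp in replicate 1 and 6361 bp in replicate 2 (6365.5 ± 6.4 bp, SD, n = 2). Cdk4 had 2306 bp (chr10:127062694-127064999, plus strand), with 2388 bp and 1963 bp in replicates 1 and 2 (2175.5 ± 300.5 bp, SD, n = 2). The mean width of the Cdk6 domain was 2.93 times that of the Cdk4 domain, and the 2 genes' replicate widths did not overlap. Bound by a D cyclin, either kinase phosphorylates the retinoblastoma protein, and Cdk6 is the one known chiefly from blood cells. By width Cdk6 stood at percentile 98.5 of all marked genes and Cdk4 at percentile 52.0. By the signal of the strongest TSS peak the order was the reverse in the replicated list, with 9.78 for Cdk6 and 12.1 for Cdk4. Replicate 2 gave 11.3 and 13.5 in that order, but replicate 1 gave 12.1 for Cdk6 and 9.25 for Cdk4. The Cdk6 domain also held a peak further than 1000 bp from any start of the gene. Its signal was 12.7 in the replicated list, 15.2 in replicate 1 and 10.5 in replicate 2. With that peak counted, Cdk6 stood above Cdk4 in the replicated list, so the reversal depends on which peaks are counted.

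The Cdk6 domain ran mainly into the gene, 4788 bp downstream of the start and 1596 bp upstream, with its summit in an intron. Inside the gene lay 5 peaks further than 1000 bp from any of its starts, among them the peak at the domain's downstream edge. The Cdk4 domain was near symmetric, 1174 bp upstream and 1131 bp downstream, and consisted of 2 peaks with a gap from 633 to 249 bp upstream of the start nearest the summit. The RefSeq start of Cdk4 lies in that gap, 333 bp upstream of that start, and the stretch with the 4 E-boxes printed above lies in it too. The Cdk6 stretch, which holds TATA box letters at −103 from its RefSeq start, was covered by a TSS peak over all of its 104 bases. That RefSeq start lies 2408 bp downstream of the start used for the domain, so the stretches are not at matching positions. The blocks beside Cdk4 in the plot of the peaks round the starts belonged to its neighbours, March9 upstream and Tspan31 downstream.

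The E and A cyclins and Cdk2, which act at the start and in the course of DNA replication, were marked at 4 of 5 genes, with a median domain of 2574 bp. Ccne2 had 3547 bp (3729 and 3332 bp in replicates 1 and 2) and Ccne1 had 2720 bp (2745 and 3021 bp). The replicate ranges of these paralogues did not overlap, though the wider was only 1.22 times as wide. In both E cyclin genes the start lay in a gap between peaks of the domain in the replicated list. For Ccne2 this is a matter of the peak's edge. Its start, at 11191736, lay just before a replicated peak that begins at 11191740, and the replicate 2 peak, from 11191718 to 11192971, covered it. Ccna2, the A cyclin of dividing somatic cells, had 2428 bp (2669 and 2202 bp), and Cdk2 had 1996 bp (1943 and 2012 bp). The Cdk2 peak also lay within 1000 bp of a start of Pmel, so it cannot be assigned to one of the genes. Ccna1, known in the mouse for its role in male germ cells, had no TSS peak, and the nearest replicated peak was 56548 bp upstream, at a start of Spg20.

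Of the mitotic genes 4 of 5 were marked, and 3 had domains of nearly the same width. B cyclins with Cdk1 trigger entry into mitosis, and Ccnf is the substrate-binding subunit of a ubiquitin ligase. In the replicated list Ccnb1 had 2489 bp, Ccnf 2432 bp, Cdk1 2385 bp and Ccnb2 1735 bp, with a median of 2408.5 bp. The first 3 cannot be ranked: they measured 3160, 2949 and 3129 bp in replicate 1 and 2315, 2398 and 2340 bp in replicate 2. Ccnb2, with 1839 and 1682 bp in replicates 1 and 2, was narrower than the others in both. In all 4 the summit lay downstream of the start, at 240 to 321 bp. Ccnb3, known as a meiotic cyclin, had no peak inside the gene or within 100 kb of it in any of the 4 lists, and its nearest replicated peak lay 276379 bp away.

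Every one of the 13 transcriptional cyclins and Cdks was marked, with a median domain of 3260 bp and a range from 1698 to 5303 bp. The broadest were Ccnl1 with 5303 bp, a cyclin linked to the splicing of transcripts, and Cdk12 with 4957 bp and Cdk13 with 4829 bp, the kinases that pair with cyclin K and phosphorylate RNA polymerase II during elongation. Ccnl1 measured 6626 and 5291 bp in replicates 1 and 2, Cdk12 5995 and 4638 bp, and Cdk13 5141 and 4584 bp. All 3 were wider in replicate 1, and the ranges of Cdk12 and Cdk13 overlapped. Ccnk, their partner, had 3024 bp in the replicated list but 4827 bp in replicate 1 and 2830 bp in replicate 2 (3828.5 ± 1412.1 bp, SD, n = 2), the largest SD among the 39 genes, and its peak lay within 1000 bp of a start of Setd3 as well.

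Ccnt2 and Ccnt1, the cyclins of the elongation factor P-TEFb, had 4352 and 3872 bp, and their ranges overlapped (4503 and 4602 bp for Ccnt2, 4504 and 4100 bp for Ccnt1). Their kinase Cdk9 had 2527 bp (3237 and 2502 bp in replicates 1 and 2). The kinases of the Mediator complex, Cdk8 and Cdk19, had 4212 and 3260 bp, with replicate ranges that did not overlap (4278 and 4595 bp for Cdk8, 3131 and 3411 bp for Cdk19). Their cyclin, Ccnc, was narrower at 1924 bp (1974 and 1920 bp). Ccnh had 1698 bp, at percentile 26.2 of all marked genes, and Cdk7 2201 bp, at percentile 47.7. They encode the cyclin and kinase that activate other Cdks and belong to the initiation factor TFIIH. Ccnl2 had 2453 bp, against which Ccnl1 was 2.17 times as wide by the replicate means.

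**Figure D2:**
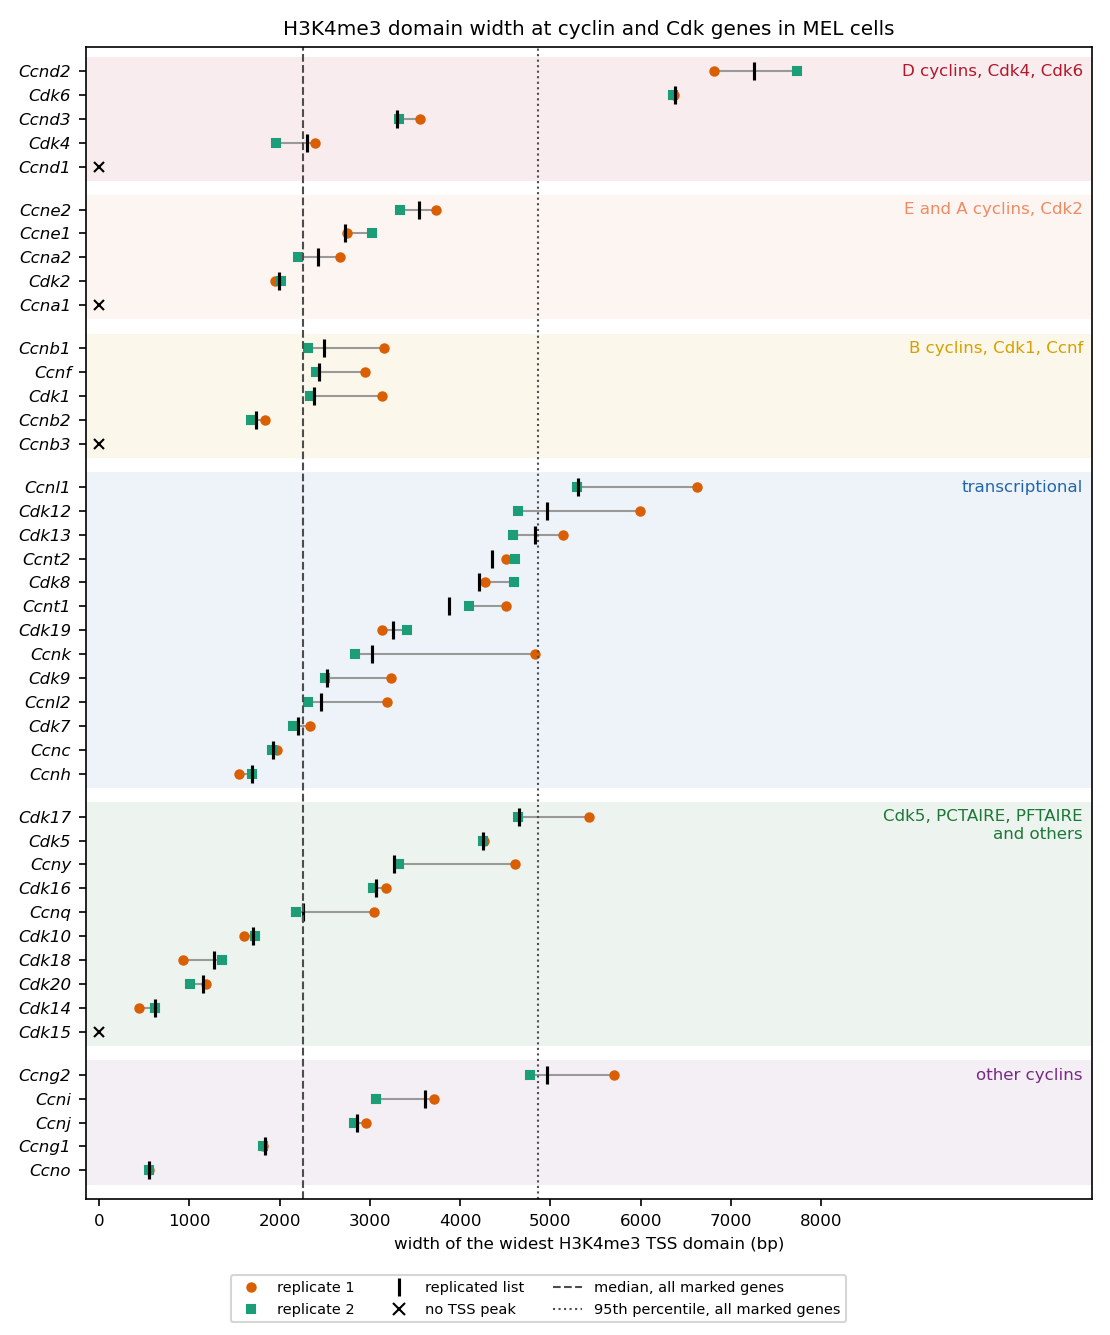
Width in bp of the widest H3K4me3 TSS domain of each of the 43 genes, by role, in replicate 1 (circles), replicate 2 (squares) and the replicated list (bars), with crosses for genes without a TSS peak; the dashed line is the median of all marked genes, 2258 bp, and the dotted line their 95th percentile, 4864 bp. Ccnd2, Cdk6 and Ccnl1 lie beyond the dotted line in both replicates. Ccnb1, Ccnf and Cdk1 lie close to the dashed line in replicate 2 and the replicated list but above it in replicate 1, at 2949 to 3160 bp.

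The next set holds the remaining kinases, with the cyclins that pair with some of them. Of these 10 genes 9 were marked, from 621 to 4647 bp with a median of 2254 bp. The PCTAIRE kinases Cdk17, Cdk16 and Cdk18 had 4647, 3070 and 1268 bp, and their replicate widths did not overlap (5427 and 4641 bp, 3180 and 3035 bp, 931 and 1365 bp). Cdk5, best known with its neuronal activators, had 4253 bp (4261 and 4250 bp), which reached 3509 bp upstream of its start and took in a start of Slc4a2, the anion exchanger gene beside it. Of its width only 743 bp lay downstream.

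The PFTAIRE kinases stood at the low end. Cdk14 had 621 bp (439 and 617 bp), at 1 of its 14 starts, with 1 further peak inside the gene. Cdk15 had no TSS peak. Its gene held 1 replicated peak of 209 bp, 17211 bp downstream of the nearest start, with a signal of 3.80 and a −log10 q of 3.45. Ccny, whose product recruits PFTAIRE kinases to the membrane, had 3269 bp but 4605 bp in replicate 1 and 3319 bp in replicate 2. Cdk10 had 1703 bp and Ccnq, the gene of its partner cyclin M, 2254 bp. Cdk20 had 1154 bp (1185 and 1004 bp).

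Among the other cyclins all 5 were marked. Ccng2, whose product is linked to withdrawal from the cell cycle, had 4966 bp (5699 and 4769 bp), and Ccng1, a target of p53, had 1834 bp (1810 and 1817 bp). The mean width of the Ccng2 domain was 2.89 times that of the Ccng1 domain, with no overlap of the replicate ranges. Ccni had 3611 bp and shared its peak with a start of 2010109A12Rik, and Ccnj had 2852 bp. Ccno, known for its role in cells with many cilia, had the narrowest domain of the 39 genes, 548 bp (553 and 554 bp), and a signal of 6.0 at percentile 4.6. Only Cdk12 had a weaker strongest TSS peak, 5.92, and there the replicates differed. Of 12 such paralogue pairs compared across all roles, the replicate widths overlapped in 2, Ccnt2 with Ccnt1 and Cdk12 with Cdk13. Cdk16, Cdk17 and Cdk18 each enter more than 1 of these pairs. How often other pairs of marked genes overlap was not worked out, so the count shows nothing particular to paralogues. With 2 libraries no test of these pairs was made.

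As a group the 39 genes had wider domains, at the median, than all marked genes. The median width of the 39 was 2720 bp in the replicated list, against 2258 bp over all 11037 marked genes. It was 3160 against 2409 bp in replicate 1, and 2819 against 2228 bp in replicate 2. Of the 39 genes 27 were wider than the median of all marked genes. At or above the third quartile of width, 3035 bp, stood 17 (43.6%), against 25.0% of all marked genes, and 4 stood below the first quartile, 1668 bp. By the quartiles of each replicate's own list the numbers were 16 in replicate 1 and 18 in replicate 2. Ccnd2, Cdk6, Ccnl1, Ccng2 and Cdk12 lay at or above the 95th percentile, 4864 bp. Cyclins and kinases had similar medians, 2786 and 2527 bp in the replicated list. Without joining peaks the median was 1695 bp, and that of all marked genes was then 1482 bp. With the 5′-most start alone the medians were 2489 and 2254 bp. The genes compared were not matched by promoter composition or by number of starts.

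In peak signal the genes stood nearer to the rest than in width. The strongest TSS peak of the 39 genes had a median signal of 14.4, against 13.8 over all marked genes, with a median percentile of 55.0. Across the 39 genes Spearman's rho between width and signal was 0.16, and across all marked genes 0.29. These are descriptions over genes of the same list. The highest signals of the replicated list were those of Ccnk with 24.5, Cdk9 with 24.1, Ccny with 23.2 and Cdk13 with 22.6. Neither replicate gave this order in full. The values in replicate 1 were 14.6 for Ccnk, 10.3 for Cdk9, 14.2 for Ccny and 20.9 for Cdk13. Cdk16 with 20.7 and Cdk5 with 19 stood above the first 3 of these there. Replicate 2 had Ccnk and Cdk9 on top, with 30.3 and 28.6. In that list Ccny had 19.1 and Cdk13 had 23.6, both below Ccnb1 with 24.9.

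The 2 libraries agreed on width and less on signal. Across the 39 genes, which share the libraries, rho between replicates was 0.95 for width and 0.32 for the signal of the strongest TSS peak. The widths differed by a median of 11.5% of their mean, with a range from 0.14% to 52.2%, against a median of 9.95% over all genes marked in both. Replicate 1 was the wider in 27 of 39 genes, as it was in 66.9% of all genes. The signal percentile differed by a median of 22.6 points, against 17.0 points over all genes. The largest shifts, all over 50 points, were at Cdk12, at percentile 84.0 in replicate 1 and 4.4 in replicate 2, at Cdk5, at 92.8 and 24.9, and at Cdk8, at 75 and 19.4. Cdk9 went the other way, at 33.2 in replicate 1 and 97.2 in replicate 2, as did Ccnb2, at 30.9 and 90.5, and Cdk20, at 1.3 and 54.1. The order of single genes by signal thus differs between the libraries.

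**Figure D3:**
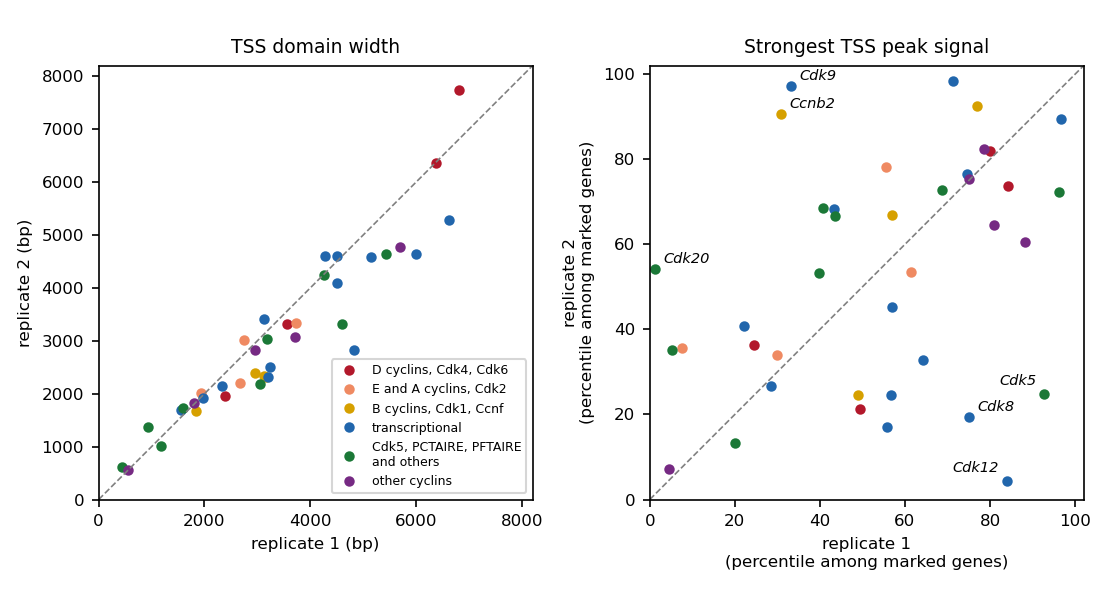
Width of the widest TSS domain in bp (left) and percentile of the strongest TSS peak's signal among all marked genes (right), replicate 1 on the horizontal and replicate 2 on the vertical axis, for the 39 marked genes coloured by role; the dashed line marks equality. Widths lie near the line, with rho of 0.95, and signal percentiles scatter, with named genes more than 50 points from it.

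The domains lay on both sides of the start. The summit of the strongest TSS peak was downstream of the nearest start of the gene in 26 of 39 genes (66.7%), against 68.6% of all marked genes, with a median position of 127 bp downstream, against 104 bp. It fell in an intron in 13 genes, in a non-coding part of an exon in 10, in a coding exon in 7 and outside the gene in 9. The median domain reached 1346 bp upstream and 1490 bp downstream, against 929 and 1200 bp over all marked genes. The downstream part was the longer in 27 genes (69.2%), against 65.5% of all marked genes. In the replicated list, the start nearest the summit lay under a peak in 34 genes (87.2%), against 79.1% of all marked genes. That start was picked by its distance to the summit, which favours starts under a peak. It lay in a gap between peaks in 5 (12.8%), against 15.2%, namely Ccne1, Ccne2, Ccng2, Ccnt2 and Cdk16, and outside the domain in 0, against 5.7%. Domains were made of 1 peak in 7 genes, of 2 in 20 and of 3 or more in 12. For these counts, and for the summit's place in introns, exons or outside the gene, shares over all marked genes were not worked out. Cdk5 reached mainly upstream, and Cdk1, with 420 bp upstream and 1964 bp downstream, mainly into the gene.

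**Figure D4:**
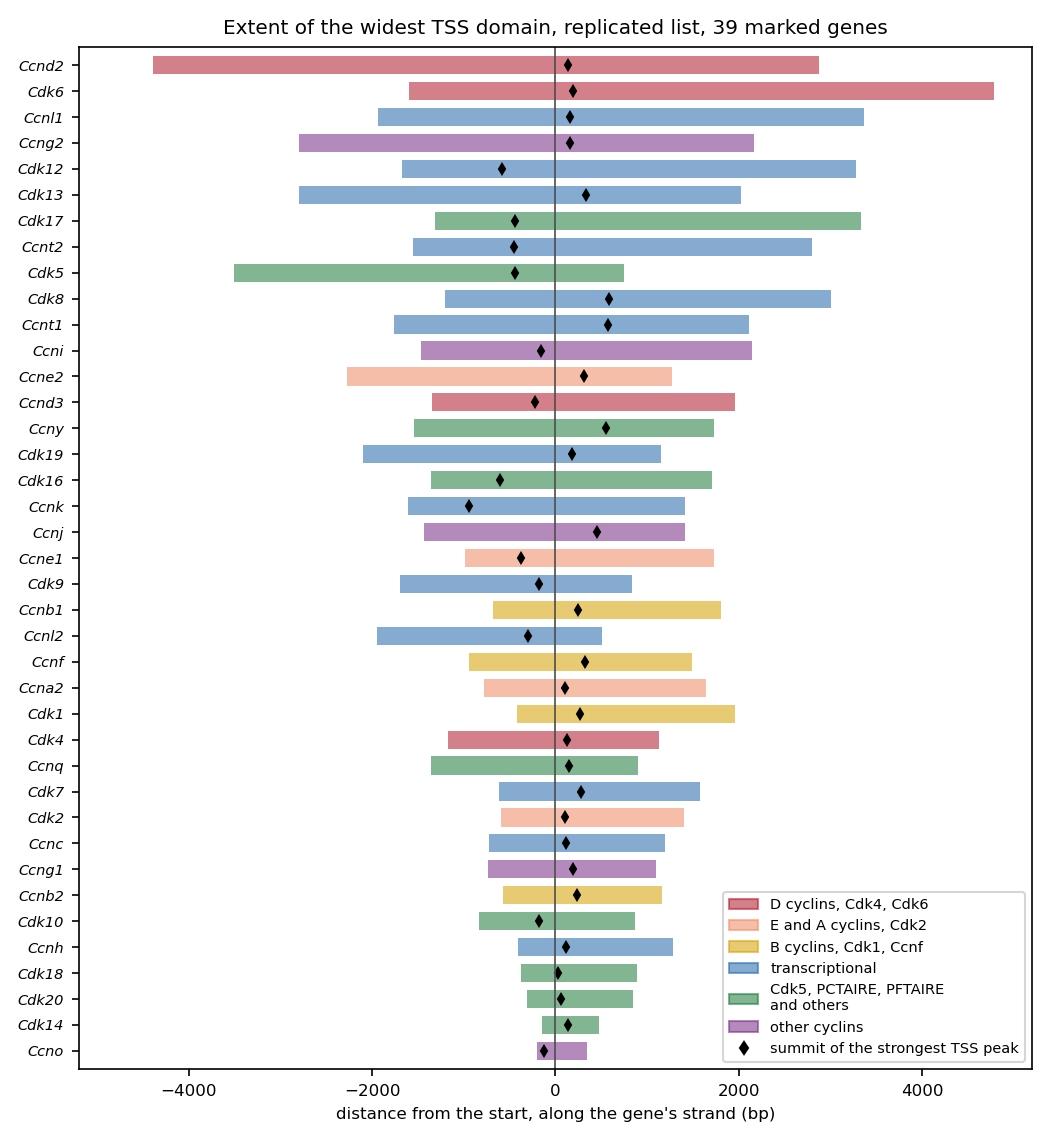
Extent in bp of the widest TSS domain of the 39 marked genes in the replicated list, along the gene's strand from the start nearest the strongest summit (0), coloured by role, with diamonds for that summit. Ccnd2 reaches 4387 bp upstream, Cdk6 reaches 4788 bp downstream, and 26 of the 39 summits lie right of 0.

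Few of these promoters were shared with another protein-coding gene. A TSS peak within 1000 bp of a start of another protein-coding gene was found at 4 of 39 genes, Ccni, Ccnk, Cdk2 and Cdk5, against 25.8% of all marked genes. At 26 genes the peak was near no start of any other annotated gene. The rest were near a start of a non-coding gene, among them Cdk19 with its antisense gene Cdk19os and Cdk9 with the microRNA genes Mir2861 and Mir3960. Of the 254 annotated starts of these 39 genes 177 had a TSS peak. At the 5′-most start 37 of the 39 genes were marked, as were 10287 of all 11037 marked genes. Peaks inside the gene and further than 1000 bp from its starts were found in 10 of the marked genes. Such peaks can belong to the gene's own TSS domain, as they do at Ccnd2 and in part at Cdk6. For the 26 genes, the 177 starts and these 10 genes, the matching shares over all marked genes were not worked out.

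The motif counts over the 34 matched promoters, in the 300 bases from 250 before to 50 after the RefSeq start, are descriptions of letters. The CCAAT box, a feature of many mitotic gene promoters, was in 17 (50%), against 38.3% of all 16522 promoters in the table and 38.8% of the 8699 of marked genes. The GC box (GGGCGG) was in 28 (82.4%), against 48.9% of all promoters and 68.4% of those of marked genes. CHR was in 5 (14.7%), against 17.1% of all promoters and 13.1% of those of marked genes, at Ccnb2, Ccnf, Ccni, Cdk1 and Cdk16. E2F letters were in 2 (5.9%), Cdk1 and Cdk2, against 3.0% of all and 4.6% of marked. The E-box was in 6 (17.6%), against 8.1% of all and 10.5% of marked, and all 6 were kinase genes: Cdk4, Cdk6, Cdk7, Cdk8, Cdk18 and Cdk20. TATA box letters were in Cdk6 alone (2.9%), against 12.7% of all and 5.8% of marked. Letters for GATA factors (AGATAA or AGATAG, and likewise TGATAA or TGATAG) were in 4 (11.8%), Ccnq, Ccnt1, Cdk16 and Cdk7, against 25.7% of all and 17.6% of marked. These 7 searches covered both strands, no motif is contained in another, and the shares were not tested.

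The 250 bases before the RefSeq start lay fully inside TSS peaks in 13 of the 31 marked genes with a promoter (41.9%), against 33.9% of marked genes with one. They lay fully outside in 5, Ccne1, Ccno, Cdk13, Cdk14 and Cdk4, or 16.1%, against 13.3%. Of the mitotic genes, Ccnb2 was covered in full, and Ccnb1, Ccnf and Cdk1 over 61, 41 and 32 bases.

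Genes that act on cyclins and Cdks were mostly marked too. Of 35 listed, 32 had a TSS peak in each of the 4 lists. In the replicated list 50.3% of all protein-coding genes and 79.8% of all high-CpG promoters had one. The median domain of the 32 was 2642.5 bp there, against 2258 bp over all marked genes. The 35 genes were picked by name and their promoter composition was not compared, so the share is not a result about the pathway. The inhibitors of Cdks were marked at 8 of 8 genes, the kinases and phosphatases that act on Cdks at 5 of 5, pocket proteins at 3 of 3, ubiquitin ligase parts at 5 of 5, and partners and relatives of cyclins and Cdks at 11 of 14. The 3 without a TSS peak were Cdk5r2, a neuronal activator of Cdk5, Ccnjl, a relative of Ccnj, and Cables1, whose product binds Cdks. The widest in the replicated list were Cdkn2d with 5895 bp (6173 and 5829 bp in replicates 1 and 2) and Cdkn2c with 5760 bp (5697 and 5795 bp), both inhibitors of Cdk4 and Cdk6. Next came Cks2, a small Cdk-binding protein, with 5734 bp (5894 and 5485 bp), and Cdkn2a, another inhibitor locus of the same kinases, with 4807 bp (5092 and 4814 bp). Rb1, the retinoblastoma gene that D cyclin kinases act on, had 4727 bp in the replicated list, with 2592 bp in replicate 1 and 4669 bp in replicate 2, so that its place among the widest rests on replicate 2. Cdkn1b, an inhibitor chosen for mention after its values were seen, had 3975 bp in the replicated list and 3788 bp in replicate 2 but 14559 bp in replicate 1, wider there than any of these 5.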

How the data were processed

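H3K4me3 ChIP-seq peak lists of 2 libraries of MEL cells were analysed, as 1 group. Per the deposited notes, the authors made 1 list per replicate against a control, 1 from both replicates pooled and 1 of replicated peaks, all on mm10. The aligner, the peak caller, the rule for a replicated peak and the read depth are not given in these sources, and a list on another build was not used here. The signal value is the authors' score for each peak, and it was ranked only within a list. The authors' deposited −log10 q was used as a filter only in an alternative setting, named below, and the main calls used every listed peak. On chromosomes 1 to 19, X and Y, peaks were matched to the GENCODE M21 annotation of GRCm38, the build called mm10. Repeated sequence was counted as 32-base words of the 1001-base promoter found more than once on either strand. Promoter letters came from the RefSeq table, in place of windows at the GENCODE starts that had been planned. Peaks between neighbouring genes counted for each. Every one of the 43 genes is named; of related genes, those without a TSS peak and the 5 with the widest domains are named; marker genes are given as counts. The members, lists and comparisons were chosen with earlier results of these data known. No test was made, since there is 1 group of 2 libraries; each library's value, or mean ± SD (n = 2), is given. As alternatives, the window round a TSS was set to 500 or 2500 bp, only the 5′-most start was used, peaks needed a −log10 q of 5 or more, the pooled or a single replicate list was read, each peak went to its nearest TSS alone, and domains were joined over gaps of 0, 500 and 2000 bp. The calls were tested on simulated peaks. Python 3.11.15, numpy 2.4.6, numba 0.67.0, pysam 0.24.0, samtools 1.23.1 and matplotlib 3.10.9 were used.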

Additional observations from a re-analysis of the deposited data

How the results depend on the processing

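The number of marked cyclin and Cdk genes was 39 under 7 alternatives and 37 with the 5′-most start alone, which dropped Ccnt1 and Cdk19. The number of D cyclin genes was 2 under all 8. The median domain width of 2720 bp was 1695 bp without joining peaks, and ranged from 2819 to 3160 bp in the lists of single replicates. It lay between 2489 and 2720 bp under the other alternatives. The lowest value came with the 5′-most start alone, against 2254 bp over all marked genes. That gap is smaller than in the main setting, 2720 against 2258 bp. The widths of Ccnd2, Ccnd3, Cdk4 and Cdk6 without joining were 2502, 2566, 1381 and 5279 bp, so that Ccnd2 and Ccnd3 then hardly differed and Cdk6 was still wider than Cdk4. Ccnd1 had no width under any alternative. No paired analysis was possible because there is 1 group. The missing depth limits what a gene without a peak can show, as does the unknown origin of the replicates.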
